A study of Mus musculus with 6 samples.

Results

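Integrins and laminins were taken from the deposited expression table by gene name, as every gene symbol of an integrin α subunit with a number or the letter v, of a numbered integrin β subunit, or of a numbered laminin chain. This gave 32 genes of the 19353 in the table: 13 α subunits, 8 β subunits and 11 laminin chains. The α subunits of leukocytes that carry other letters, such as Itgam and Itgal, lie outside this choice. Polyadenylated RNA was counted in 6 libraries of mesenchymal stem cells, precursors of bone and fat cells, purified from the marrow of wild-type mice. The MCH cells (3 libraries) were kept in osteogenic medium with 0.5 µM melanin concentration hormone, a peptide best known from the hypothalamus. The Control cells (3 libraries) had the same medium without the peptide, and the medium of both groups carried dexamethasone (100 nM), β-glycerophosphate (10 mM) and ascorbic acid (50 µM). Sample titles place the harvest on day 9 of induction, whereas the series design gives day 8. The labels give neither strain, sex and age of the mice nor the source of each replicate. The p-values therefore reflect only the variation among these 6 libraries, which may be technical.

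Integrins are receptors made of 1 α and 1 β subunit that bind matrix proteins outside the cell and connect, through talin and kindlin, to actin inside it. The α subunit largely sets the ligand: some bind collagens, some bind laminins, and some bind the RGD tripeptide found in fibronectin, vitronectin and osteopontin. Laminins are cross-shaped trimers of an α, a β and a γ chain that build the scaffold of basement membranes. In the osteoblast lineage, fibronectin receptors with α5 and collagen receptors with α2 or α11 are known to take part in adhesion and matrix-dependent differentiation.

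Library totals ran from 16521980 to 18803949 counts. Stromal markers were present, with Cd44 at 1041 counts in MCH replicate 3 and 2222 to 2875 elsewhere, while the pan-leukocyte gene Ptprc had 0 to 2. Of the 10 stromal markers, 4 were called lower with MCH (40%, against 5.40% of all genes tested). The summed level of the 10 was 1001 to 1145 CPM in MCH and 1631 to 1745 CPM in Control libraries. Most of that gap was Ly6a, which averaged 533 ± 66.8 CPM in MCH libraries and 997 ± 84.8 CPM in Control libraries (SD, n = 3 each), while Vcam1 lay above 0 without passing. Among markers of other cell types, 2 were called higher with MCH: the T cell gene Cd3e, with 125 to 153 counts in MCH and 39 to 61 in Control libraries (edgeR, adjusted p = 0.00346), and the smooth muscle gene Tagln (log2 fold change 0.35 ± 0.08, adjusted p = 0.0298). Cd3e was the only lymphocyte marker tested and Tagln 1 of 5 smooth muscle markers tested, and 3.64% of all genes tested were called higher. The summed smooth muscle list reached 1688 to 1873 CPM in MCH libraries, above the 1411 to 1553 CPM of Control libraries. Most of that sum was Acta2, which averaged 1569 CPM with MCH and 1315 CPM in Control and was not called. Of the 5 tested genes of that list, 3 were above 0 and 2 below (Cspg4 at -0.67 and Myh11 at -0.33). The pericyte gene Rgs5, not tested, had 0 to 3 counts in MCH libraries and 4 to 7 in Control libraries. The part of these markers in the integrin and laminin values was not tested. MCH replicate 3 stood apart in macrophage genes (Adgre1 had 50 counts there and 0 to 11 elsewhere) and Control replicate 2 in the keratinocyte genes Krt5 and Krt14, with 82 and 94 counts there and 2 to 10 elsewhere. All 4 tested macrophage markers were above 0 and none was called. The most abundant, Cd68, had 690 to 934 counts in MCH libraries and 549 to 606 in Control libraries. MCH replicate 1 lay at -10.9 on the first principal component, nearer to Control (18.9 to 25.5) than MCH replicates 2 and 3 did (-32.3 and -24.8). In bulk RNA, fewer cells of a type and less RNA per cell cannot be told apart.

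With MCH, 6 of the 28 members that could be tested were lower and none was higher. They included the fibronectin receptor subunit Itga5, the β3 subunit gene Itgb3, the collagen receptor subunit Itga2 and the laminin chains Lama5 and Lamb1. Their log2 fold changes, MCH minus Control, ran from -0.29 ± 0.07 for Lamb1 to -1.89 ± 0.47 for Itga2 (SE). Itga2, Lama3 and Lamb3 entered the test through their Control libraries alone, the group where they were higher, since the filter asked for about 10 counts in each of 3 libraries and their MCH libraries did not all reach that. Of the 25 members that met it in both groups, 5 were lower and 0 higher. The gene for the shared β1 subunit, Itgb1, and that for the laminin receptor subunit α3, Itga3, stood at nearly equal levels in both groups. The 6 calls are 21.4% of the members tested. Among all 13662 genes tested, 5.40% were called lower, 3.64% higher and 9.04% in either direction (edgeR quasi-likelihood fit, p adjusted over all genes by Benjamini-Hochberg and under 0.05). The members were chosen with earlier results of these data known, so their shares only describe them. The median log2 fold change was -0.29 over the members tested and 0.00 over all genes tested. The members' median was -0.19 without MCH replicate 2, -0.14 with limma on log2(FPKM + 1), a scale that shrinks low genes, and -0.18 with the trend on gene length removed. Over all genes in the same fits, the median was 0.002, -0.005 and 0.043. Of the members tested, 22 were below 0 and 6 above. At an unadjusted p under 0.05 there were 13 members (46.4%), 1 of them higher (Itga7), against 26.8% of all genes tested, and edgeR, DESeq2 and limma-voom each called 0 members higher. The 4 members with a mean under 10 counts (Itga4, Itga8, Itga9 and Lama1) were not tested. Groups did not overlap for 12 of the 28 members, 11 lower and 1 higher with MCH, against 32.8% of all genes tested. Itga2, Lama3 and Lamb3, which entered through Control alone, are in the members' median and among the 22 below 0. Itga2 and Lama3 are also among the 13 at an unadjusted p under 0.05 and the 12 without overlap.

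**Figure D1:**
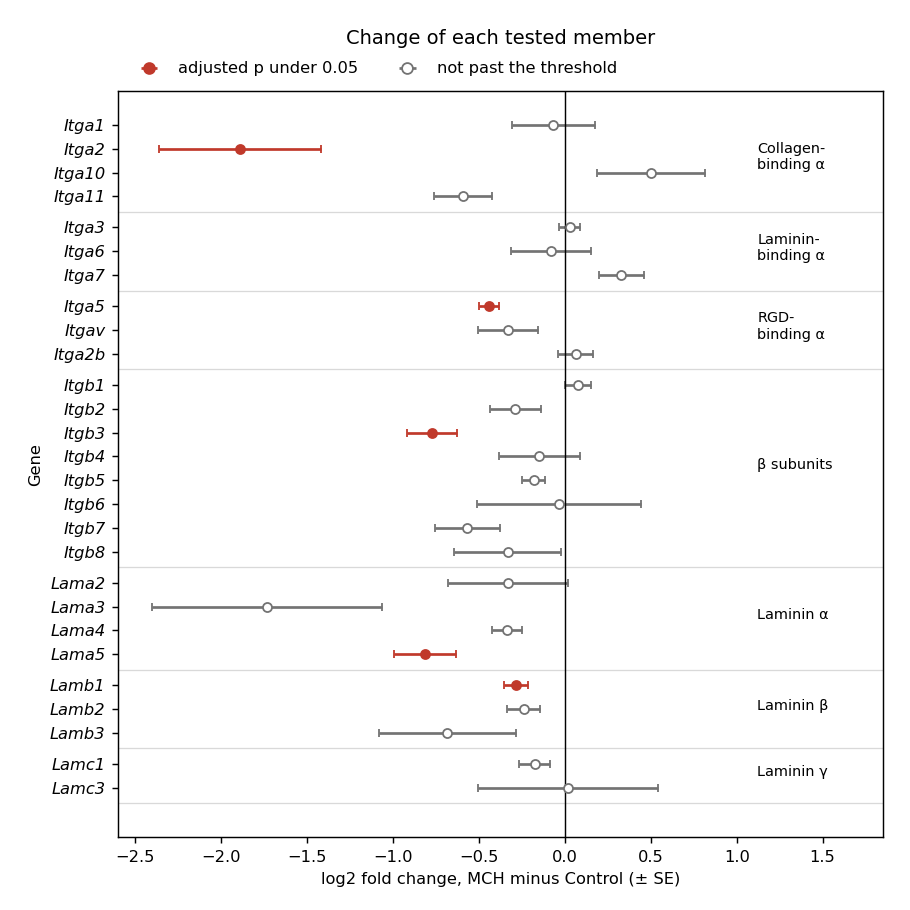
Log2 fold change of 27 of the 28 tested members, MCH minus Control, from the fit to counts, with its SE as bars. Filled points are the 5 of these past the threshold, all to the left of 0, from Lamb1 at -0.29 to Itga2 at -1.89, and open points did not pass.

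Of the 6 genes called lower, 4 had a promoter entry in RefSeq (GRCm38.p6): Itga2, Itga5, Lama5 and Lamb1. The 250 bases before each annotated start are printed 5′ to 3′ on the gene's strand, since these are the members that fell together, at chr13:114932101-114932350 (minus strand), chr15:103366792-103367041 (minus strand), chr2:180225860-180226109 (minus strand) and chr12:31265043-31265292 (plus strand). Capitals mark matches to the Sp1 motif GGGCGG or its reverse complement CCGCCC.
Itga5: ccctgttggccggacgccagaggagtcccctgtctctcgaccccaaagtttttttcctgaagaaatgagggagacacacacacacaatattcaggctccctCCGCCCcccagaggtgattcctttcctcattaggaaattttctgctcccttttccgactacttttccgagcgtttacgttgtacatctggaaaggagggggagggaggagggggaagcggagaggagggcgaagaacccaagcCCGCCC
Lama5: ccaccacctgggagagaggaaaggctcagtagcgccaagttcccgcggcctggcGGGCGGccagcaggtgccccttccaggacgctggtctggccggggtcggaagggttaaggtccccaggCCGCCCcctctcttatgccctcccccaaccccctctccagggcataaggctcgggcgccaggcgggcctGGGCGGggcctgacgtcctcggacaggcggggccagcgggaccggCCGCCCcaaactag
Lamb1: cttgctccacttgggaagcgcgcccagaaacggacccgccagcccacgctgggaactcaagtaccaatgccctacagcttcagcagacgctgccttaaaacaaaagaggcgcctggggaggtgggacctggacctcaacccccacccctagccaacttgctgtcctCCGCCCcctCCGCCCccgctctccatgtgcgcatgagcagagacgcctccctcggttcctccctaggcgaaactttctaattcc
Itga2: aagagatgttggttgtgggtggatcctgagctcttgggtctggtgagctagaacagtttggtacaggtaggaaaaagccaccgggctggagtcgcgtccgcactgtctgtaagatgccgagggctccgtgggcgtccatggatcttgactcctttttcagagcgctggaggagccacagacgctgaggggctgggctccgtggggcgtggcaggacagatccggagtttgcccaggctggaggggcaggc
The Lama5 window held 4 such matches, Itga5 and Lamb1 held 2 each, and Itga2 held none. Of all 32851 promoter windows of that length, 32.7% held at least 1. G and C made up 72.4% of the Lama5 window, 62% of Lamb1, 60.8% of Itga2 and 55.6% of Itga5, against a median of 52.4% over all windows. The part of this in the matches was not tested. The AP-1 motif TGANTCA, present in 6.75% of all windows, and the Runx motif TGTGGT on either strand, in 14.1%, were not found in these 4. Sp1 and AP-1 matches did not overlap, there being no AP-1 match. These matches describe letters only. Over the 21 members with an entry (24 windows), 8 windows held an Sp1 match, 2 a Runx match and none an AP-1 match.

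Among the α subunits that bind RGD ligands, Itga5 was the most abundant and fell. Itga5 (chromosome 15, 103344289 to 103366763, GRCm38), whose product pairs with β1 as the main fibronectin receptor, had 103, 94.2 and 97.5 FPKM in the MCH libraries and 129, 133 and 141 FPKM in Control libraries (fragments per kilobase, scaled to library size, a level per length). All MCH libraries lay below all Control libraries, and the groups spanned less than the gap between them. The log2 fold change was -0.44 ± 0.06 (edgeR, adjusted p = 0.00643), a level 1.36-fold lower. This was the member whose call held in each of the 6 fits with 1 library left out (edgeR, adjusted p from 0.00991 to 0.0486). Itgav, the αv subunit that pairs with several β subunits, had 1.38, 1.15 and 0.840 FPKM with MCH and 1.25, 1.58 and 1.44 FPKM in Control, and the groups overlapped (-0.33 ± 0.17, adjusted p = 0.266). Itga2b, known as the platelet αIIb subunit, averaged 2.28 ± 0.132 FPKM with MCH and 2.20 ± 0.208 FPKM in Control (SD, n = 3 each), a log2 fold change of 0.06 ± 0.10 (edgeR, adjusted p = 0.735). Other listed platelet genes had lower means, MCH before Control: Gp1bb 1.19 and 1.16 FPKM, Ppbp 0.937 and 1.33 FPKM, and Pf4 0.198 and 0.143 FPKM. Gp6 averaged 0.0156 and 0.0250 FPKM. In counts, Pf4 had 0 to 11 over all libraries and Gp1bb 44 to 60, against 263 to 358 for Itga2b. Itga8, a receptor subunit for nephronectin, had 1 to 10 counts.

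Of the 4 collagen receptor subunits, Itga2 was called lower and the others did not pass. Itga2, the α2 subunit, had 6, 2 and 5 counts in MCH libraries and 17, 21 and 12 in Control libraries. The groups did not overlap, and the log2 fold change was -1.89 ± 0.47 (edgeR, adjusted p = 0.0464). The call rests on 13 counts over the MCH and 50 over the Control libraries, and on a gene that met the filter in Control alone. It was lost with no filter on low counts (adjusted p = 0.0510) and in each of the 6 fits with 1 library left out (adjusted p from 0.0502 to 0.146). Itga11, the α11 subunit that binds fibrillar collagen in mesenchymal cells, was the most abundant of the 4, with 3.0, 2.08 and 2.31 FPKM with MCH and 2.98, 4.04 and 4.21 FPKM in Control. On the CPM scale its groups did not overlap, though MCH replicate 1 and Control replicate 1 lay close together, and it did not pass (-0.59 ± 0.17, adjusted p = 0.0690). Without MCH replicate 1 or Control replicate 1, Itga11 did pass (adjusted p = 0.0309 and 0.0442). Itga1, a receptor subunit for type IV collagen among others, averaged 0.715 ± 0.0768 FPKM with MCH and 0.754 ± 0.224 FPKM in Control, and Itga10, a cartilage collagen receptor subunit, 0.176 ± 0.0415 and 0.125 ± 0.0240 FPKM. Neither passed: the log2 fold change was -0.07 ± 0.24 for Itga1 and 0.50 ± 0.31 for Itga10 (edgeR, adjusted p = 0.890 and 0.346).

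No laminin-binding α subunit passed. Itga3, whose α3 subunit binds laminins with an α3 or α5 chain, was the second most abundant α gene, with 25.8, 24.5 and 24.7 FPKM with MCH and 23.1, 24.4 and 26.6 FPKM in Control. The groups overlapped and the log2 fold change was 0.03 ± 0.06 (edgeR, adjusted p = 0.813). Itga7, best known as the laminin receptor subunit of muscle, had 4.40, 4.02 and 4.18 FPKM with MCH and 2.71, 3.67 and 3.73 FPKM in Control. Every MCH library was above every Control library, yet it did not pass (0.33 ± 0.13, adjusted p = 0.158). Itga6 averaged 0.440 ± 0.0803 FPKM with MCH and 0.468 ± 0.142 FPKM in Control. Its highest library was Control replicate 2 (146 counts, 75 to 108 elsewhere), which also had the most Krt5 and Krt14 reads, and the part of that in the Itga6 value was not tested. Without that library the Itga6 log2 fold change was 0.18, against -0.08 with it. Itga4, known mainly from leukocytes, and its relative Itga9 had 0 to 3 and 0 to 5 counts.

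**Figure D2:**
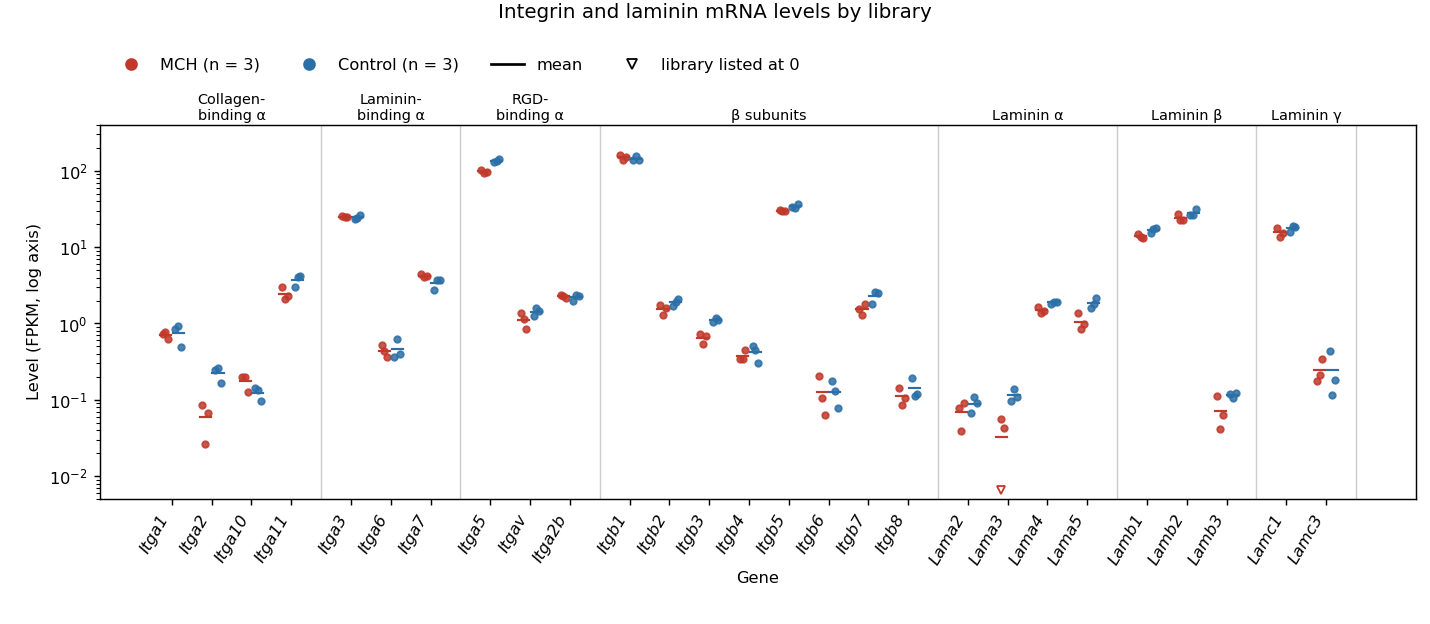
FPKM (log axis) of 27 of the 28 tested members in each library, MCH left of Control for each gene, with lines at the group means. Itgb1 and Itga5 stand highest, near or above 100 FPKM, the main laminin chains Lamb1, Lamb2 and Lamc1 between 13.1 and 32.0 FPKM, and the open triangle marks Lama3 in MCH replicate 1, which had 0 counts.

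Of the 8 β subunits, 1 fell (12.5%), against 9.04% of all genes tested called in either direction and 5.40% called lower. Itgb3, the β3 subunit that joins αv to bind osteopontin and vitronectin, had 0.719, 0.531 and 0.678 FPKM with MCH and 1.06, 1.16 and 1.097 FPKM in Control. The groups were well apart, and it was 1.71-fold lower (log2 fold change -0.77 ± 0.14, edgeR, adjusted p = 0.0192). Leaving out MCH replicate 2 or 3, or Control replicate 2 or 3, ended the call (adjusted p from 0.0559 to 0.0745). Itgb1, the β1 subunit that most α subunits share, had 163, 139 and 151 FPKM with MCH and 136, 157 and 140 FPKM in Control, with the groups fully interleaved (0.08 ± 0.08, adjusted p = 0.571). Itgb5, the other abundant partner of αv, averaged 30.0 ± 0.533 FPKM with MCH and 34.3 ± 2.47 FPKM in Control. All its MCH libraries were below all Control libraries, but it did not pass (-0.18 ± 0.07, adjusted p = 0.129). Itgb7, a lymphocyte subunit, averaged 1.55 ± 0.241 and 2.31 ± 0.424 FPKM (-0.57 ± 0.19, adjusted p = 0.106), and Itgb2, the leukocyte β2 subunit, 1.55 ± 0.232 and 1.90 ± 0.192 FPKM (-0.29 ± 0.15, adjusted p = 0.256), MCH before Control. The epithelial subunits Itgb4 and Itgb6 and the TGF-beta-activating subunit Itgb8 were each under 1 FPKM in every library and did not pass, with log2 fold changes of -0.15 ± 0.24, -0.03 ± 0.48 and -0.33 ± 0.31 (edgeR, adjusted p from 0.543 to 0.972).

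Read by heterodimer partner, the level per length showed which subunit of each known pair had the scarcer mRNA. Protein was not measured. The log2 ratio of α to β FPKM within a library, which does not depend on library scaling, was compared for 15 of 19 listed pairs whose subunits both had a mean of at least 10 counts. The Itga5 to Itgb1 ratio was -0.66, -0.56 and -0.63 in MCH libraries and -0.09, -0.23 and 0.02 in Control libraries. Itgb1 was thus 1.53-fold above Itga5 with MCH and 1.07-fold above it in Control, a log2 difference of -0.52. How far 1 gene stands above another depends on the gene lengths behind the deposited FPKM. The length implied by counts and FPKM was 5655 bases for Itgb1 and 4379 for Itga5, against 4081 and 4933 exon bases in GENCODE M21. The difference between groups does not depend on these lengths. The ratio of Itga11 to Itgb1 was lower with MCH by a log2 difference of -0.67 and that of Itga2 by -2.12, while that of Itga7 was higher by 0.27. With Itga2b and Itgb3 the ratio was higher by 0.85, with means of 1.84 ± 0.26 with MCH and 0.99 ± 0.09 in Control (SD, n = 3 each). For these 5 pairs and for Itgav with Itgb1 (-0.43) the groups did not overlap, which gives an exact two-sided permutation p of 0.1. That is the smallest p that 3 against 3 allows, and the Benjamini-Hochberg value over the 15 pairs was 0.25, so no pair could pass 0.05. For the other 9 pairs the groups overlapped (exact permutation p from 0.3 to 0.9). The Itga3 to Itgb1 ratio differed by -0.05, with Itgb1 6.03-fold higher with MCH and 5.84-fold higher in Control.

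The mRNA of several β subunits stood far above that of the α subunits they are known to join. The β5 subunit is known only with αv, and Itgb5 was 27.2-fold above Itgav with MCH and 24.1-fold above it in Control. For Itgb3 the balance ran the other way, with Itgav 1.73-fold above it with MCH and 1.28-fold in Control, and Itga2b 3.57-fold and 1.98-fold above it. Itgb2 had 110 to 169 counts, whereas its partners Itgal, Itgam and Itgax had 0 to 7, 0 to 6 and 0 to 30 counts. The value of 30 for Itgax and 6 for Itgam came from MCH replicate 3, the library with the most macrophage reads, while Itgb2 there (128 counts) lay between the other MCH libraries (110 and 138). Itgb7 had 66 to 136 counts, its partner Itga4 0 to 3 and its partner Itgae 4 to 17.

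**Figure D3:**
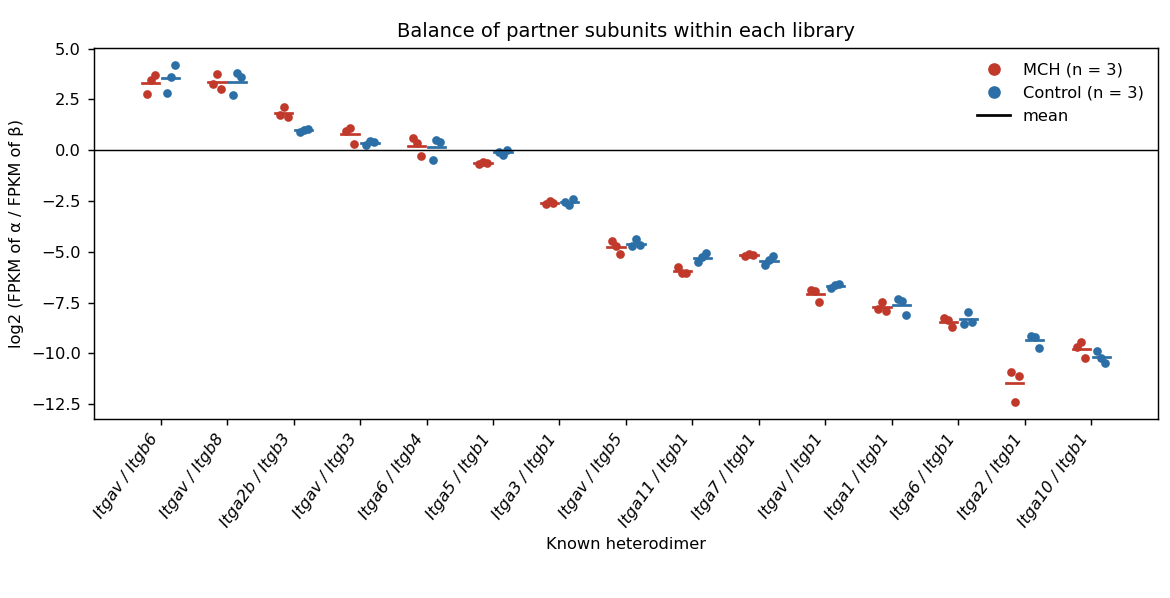
Log2 ratio of α to β FPKM in each library for the 15 known heterodimers compared, MCH left of Control, ordered by the Control mean, with lines at group means. At 0 both subunits have equal FPKM: the Itga5 / Itgb1 points lie between -0.66 and -0.56 with MCH and between -0.23 and 0.02 in Control, and Itgav / Itgb5 lies under -4 in both groups.

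Together, the 13 α genes summed to 142, 129.9 and 133 FPKM in MCH libraries and 162, 171 and 181 FPKM in Control libraries, with no overlap. The 8 β genes summed to 185 ± 12.5 FPKM with MCH and 185 ± 10.2 FPKM in Control (SD, n = 3 each). Itga5 made up 72.9 ± 0.432% of the α sum with MCH and 78.4 ± 0.741% in Control, and Itga3 18.6 ± 0.342% and 14.4 ± 0.252%. These shares move with Itga5 itself, since it is most of the sum. Itgb1 and Itgb5 held 81.4 ± 0.857% and 16.2 ± 1.02% of the β sum with MCH, and 78.1 ± 1.95% and 18.6 ± 1.91% in Control.

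Of the 10 laminin chains tested, 3 fell and 9 were below 0, with a median log2 fold change of -0.34. The 3 are 30% of these chains, against 5.40% called lower among all genes tested. Lama3 and Lamb3, both below 0, entered the test through their Control libraries alone, which favours values below 0 in this count and median. Lama5, the α chain of widespread basement membrane laminins, had 1.36, 0.837 and 0.990 FPKM with MCH and 1.62, 1.83 and 2.18 FPKM in Control. No MCH library reached a Control library, and Lama5 was 1.76-fold lower (log2 fold change -0.81 ± 0.18, edgeR, adjusted p = 0.0343). Dropping any of MCH replicates 2 and 3 or Control replicates 2 and 3 ended the call (adjusted p from 0.0884 to 0.133). Lama4, the α chain typical of mesenchymal and endothelial laminins, had 1.63, 1.35 and 1.47 FPKM with MCH and 1.81, 1.94 and 1.92 FPKM in Control. The groups did not overlap but it just missed the threshold (-0.34 ± 0.09, adjusted p = 0.0506). It passed without MCH replicate 1 (adjusted p = 0.0376). Lama3, an epithelial α chain, had 0, 11 and 8 counts with MCH and 17, 28 and 20 in Control (-1.73 ± 0.67, adjusted p = 0.144). Lama2, the muscle chain, had 13 to 29 and 20 to 37 counts (-0.33 ± 0.35, adjusted p = 0.590), and Lama1, an embryonic chain, 1 to 3 and 0 to 2, MCH before Control.

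Lamb1, Lamb2 and Lamc1 were more abundant than any α chain. Lamb1, the β1 chain, had 14.7, 13.7 and 13.1 FPKM with MCH and 15.5, 17.5 and 17.999 FPKM in Control. It was lower in every MCH library and passed with a small change (-0.29 ± 0.07, edgeR, adjusted p = 0.0412). The call ended when MCH replicate 2 or 3 or Control replicate 2 or 3 was dropped (adjusted p from 0.114 to 0.164) and with the trend on gene length removed, where the log2 fold change was -0.17 (adjusted p = 0.0873). Lamb2, the β2 chain, had 26.8, 22.3 and 22.4 FPKM with MCH and 26.2, 26.7 and 32.0 FPKM in Control, overlapping groups (-0.24 ± 0.10, adjusted p = 0.162). Lamb3, the β3 chain of epithelial laminin, had 6 to 15 counts in MCH libraries, against 16 to 17 in Control (-0.68 ± 0.40, adjusted p = 0.313). Lamc1, the γ1 chain that most laminins share, averaged 15.6 ± 1.96 FPKM with MCH and 17.7 ± 1.51 FPKM in Control (SD, n = 3 each), with overlap (-0.17 ± 0.09, adjusted p = 0.263). Lamc3 had 20 to 41 counts in MCH libraries, against 15 to 49 in Control (0.02 ± 0.52, adjusted p = 0.985).

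The mRNAs of chains that form one trimer were thus present at unequal levels. All 5 α chains summed to 2.66 ± 0.398 FPKM with MCH and 3.97 ± 0.346 FPKM in Control, against 37.8 ± 3.40 and 45.4 ± 4.26 FPKM for the 3 β chains. The ratio of Lama5 to Lama4 was 0.833, 0.619 and 0.673 in MCH libraries and 0.892, 0.943 and 1.13 in Control libraries, without overlap, and was examined after the single-gene values were seen. The ratio of Lamb1 to Lamb2 stayed close, at 0.550 to 0.612 with MCH and 0.562 to 0.654 in Control.

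**Figure D4:**
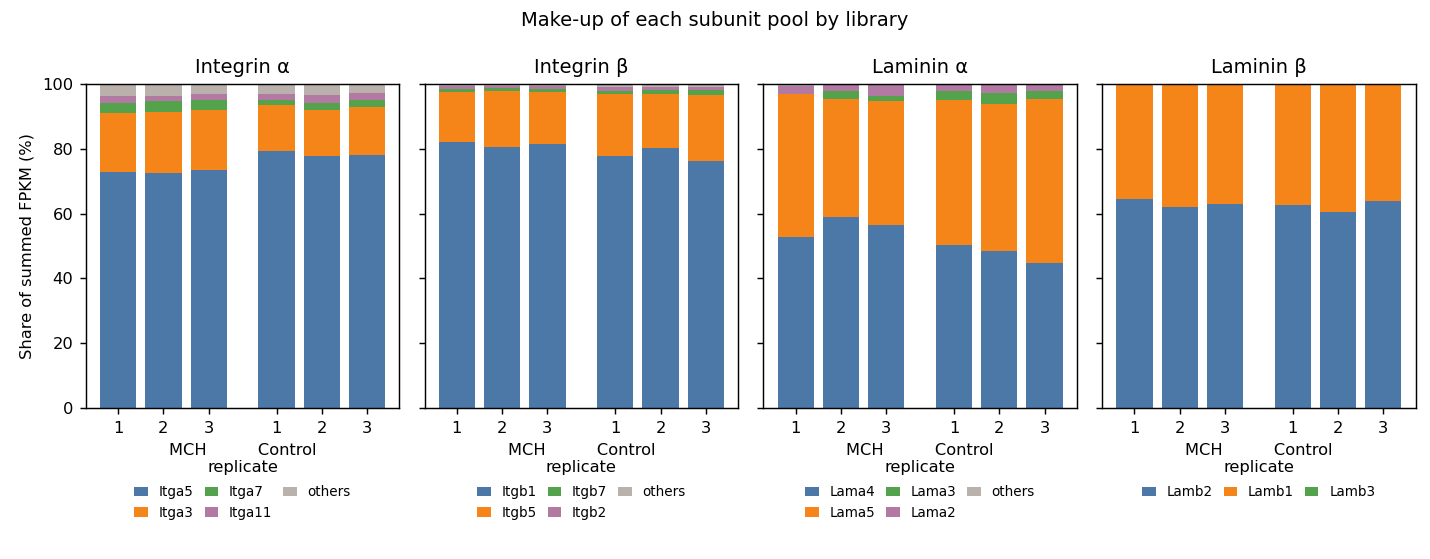
Share of each gene in the summed FPKM of its pool, for each library, MCH left of Control (bars start at 0). Itga5 takes 72.6 to 73.4% of the α pool with MCH and 77.8 to 79.2% in Control, and Lama4 52.8 to 58.9% and 44.7 to 50.3% of the laminin α pool.

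Several genes of matrix proteins that integrins bind were lower with MCH. Of 18 tested integrin ligands, 7 fell and none rose by edgeR, with a median log2 fold change of -0.20. The 7 are 38.9% of the ligands tested, against 5.40% called lower among all genes tested. The ligands were listed with earlier results of these data known, so this share describes the list and does not test it. At an unadjusted p under 0.05, 3 were higher (Fbln5, Vcam1 and Ccn1), and DESeq2 called 2 higher and limma-voom 1. Osteopontin, Spp1, an RGD ligand of αvβ3, averaged 93.1 FPKM with MCH and 196 FPKM in Control (-1.06 ± 0.06, edgeR, adjusted p = 0.000175), and the fibrillar collagen gene Col3a1 117 and 235 FPKM (-0.99 ± 0.08, adjusted p = 0.000741). Fn1, which encodes fibronectin, the ligand of α5β1, had 61067, 53794 and 55022 counts with MCH and 65558, 87487 and 79581 in Control (-0.43 ± 0.09, adjusted p = 0.0318). Fn1 and Itga5 thus fell by nearly equal amounts. The vitronectin gene Vtn had 0 to 5 counts and was not tested. Col1a1, Col1a2, Tgfb3 and Ccn2 were also called lower. Vcam1, a ligand of α4β1, averaged 2.45 and 1.77 FPKM and did not pass (adjusted p = 0.0745).

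Inside the cell, 5 of 25 tested integrin activators and adhesion plaque genes fell and none rose (median log2 fold change -0.11). There were 0 higher also by DESeq2, by limma-voom and at an unadjusted p under 0.05 in edgeR. The 5 are 20% of this list, against 5.40% called lower among all genes tested. They were Ptk2b, a focal adhesion kinase relative (-0.85 ± 0.12, edgeR, adjusted p = 0.00812), the tensin genes Tns2 (-0.43 ± 0.07) and Tns1 (-0.47 ± 0.09), whose products bind β tails, the Cas-family adaptor Nedd9 (-0.58 ± 0.12) and the paxillin relative Tgfb1i1 (-0.36 ± 0.08). The activators talin and kindlin-2 did not pass: Tln1 averaged 38.4 FPKM with MCH and 45.7 FPKM in Control (edgeR, adjusted p = 0.178), and Fermt2 40.5 and 41.8 FPKM (adjusted p = 0.791). Nor did the kinase gene Ptk2, which encodes focal adhesion kinase, at 25.4 and 27.02 FPKM (adjusted p = 0.473). Among 16 tested basement membrane partners of laminin, 4 fell and 1 rose (median -0.17). These calls are 31.25% of the list, against 9.04% of all genes tested called in either direction. All lists of this paragraph were likewise chosen with earlier results of these data known, so their shares only describe them. Nid2, a laminin-binding linker, fell by 0.84 ± 0.13 on the log2 scale, Col18a1 by 0.62 ± 0.08, the laminin receptor dystroglycan, Dag1, by 0.41 ± 0.09 and Col4a1 by 0.29 ± 0.06, while the sarcoglycan gene Sgcd rose by 0.34 ± 0.08 (edgeR, adjusted p from 0.00435 for Col18a1 to 0.0421 for Sgcd). The list's 1 higher call became 0 in each of the 6 fits with 1 library left out, by DESeq2, with no filter on low counts and with limma on FPKM. Nid1, which links laminin γ1 to type IV collagen, did not pass (adjusted p = 0.327). Of 11 membrane partners of integrins, 1 rose: Slc3a2, the CD98 heavy chain that binds β tails, averaged 82.0 FPKM with MCH and 61.7 FPKM in Control (0.42 ± 0.06, adjusted p = 0.00901). That is 9.09% of the list, about the same share as the 9.04% called in either direction among all genes tested. This list had 3 higher calls by DESeq2, with the length trend removed and without MCH replicate 1, and 0 without MCH replicate 3. The laminin receptor tetraspanin Cd151 averaged 122 and 119 FPKM (adjusted p = 0.631). Over these lists, counts lower with MCH were 16, and 5 or 6 without MCH replicate 2 or 3 or Control replicate 2 or 3.

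By the GENCODE M21 annotation, the exons of 10 members overlap those of another gene, none of them among the genes called lower. The largest overlap, 33.5% of Itga10's exon bases, is with Gm42957 on the same strand. Without a stated strand setting, reads of antisense partners at Itga4, Itga7, Itga8, Itgav, Itgb4, Lama2, Lama3 and Lamc3 cannot be told apart from the member's own, and how far they bear on its values was not measured. At Itga7 the shared stretch is only 9 bases, or 0.111% of its exon bases. In the authors' deposited table, 1 of the 32 members is marked as changed, Itga2, with a q-value of 0.0114 and the higher mean in Control. Its mark reads UP. All 212 genes marked UP have the higher mean in Control columns, so the mark runs opposite to the MCH minus Control direction used here. Itga5, Itgb3 and Lama5 have q-values of 0.0319, 0.0474 and 0.0311 without a mark.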

How the data were processed

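RNA-seq was deposited as 1 table for 6 libraries. Per the file headers, the authors deposited a read count and an FPKM value for each gene and library, their group means of FPKM, and p-values and q-values of their own comparison. The genome build was GRCm38, also named mm10, per the submitters' processing notes. Which aligner, counter, annotation, strand setting and test the authors used is not given in the sources used. Control columns were identified as those without MCH in their names, so every direction rests on the column names.

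Counts were tested with edgeR 4.0.16 (R 4.3.3): TMM scaling, filterByExpr (minimum count 10, minimum total 15), a robust quasi-likelihood fit on group, two-sided tests and Benjamini-Hochberg adjustment over 13662 genes (5691 left out) at 0.05. SEs are the unshrunken log2 coefficient over the square root of F. CPM values are TMM scaled, and levels between genes are the deposited FPKM. Fold changes are given for members with a mean of at least 10 counts. Members and lists were chosen with earlier results of these data known. Of the 32 members, 1 is not reported here by name and stays in the counts. Library values are given for the others past the threshold and the most abundant of each class, and up to 4 of each pathway list with the smallest p, with further core genes chosen after their values were seen. Cyr61 and Ctgf were counted under Ccn1 and Ccn2. Fermt1 and some markers were not analysed here. Other settings tried were scaling by RLE or upper quartile, DESeq2 1.42.0, limma 3.58.1 (voom, and log2 FPKM with pseudocounts of 1 and 0.1), other filters, a non-robust fit, removal of a length trend, a block on replicate number, and fits without each library in turn. The steps were tested on simulated data. Chi-square over degrees of freedom was 14.9 to 25.3 between libraries of the same group, above counting noise, so none was treated as a copy.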

Additional observations from a re-analysis of the deposited data

How the results depend on the processing

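All 28 tested members kept a log2 fold change on the same side of 0 under both other scalings, and no called direction reversed under any alternative that gave a value. Members called lower numbered 6 and were 6 or 7 under the other scalings, filters, DESeq2, limma-voom and the non-robust fit, 4 with the length trend removed (Itga2, Itga5, Itgb3 and Lama5), and 3 with limma on log2(FPKM + 1) or log2(FPKM + 0.1) (Itga2, Itga5 and Itgb3). None was called higher under any of them. Leaving out 1 library gave 1 to 6 members. Itga5 was the 1 member called without MCH replicate 2 or 3 or Control replicate 2 or 3, and calls over all genes fell as well there, to 65 to 116 higher and 256 to 342 lower. Over all 6 such fits, 65 to 722 genes were higher (497 with all libraries) and 256 to 867 lower (738). For the genes of the 4 pathway lists together, 2 were higher and 16 lower. DESeq2 gave 5 higher, the length trend removed 6 higher and 920 over all genes, and leaving out 1 library 0 to 3 higher and 5 to 19 lower.

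The labels state no pairing, and the replicate number gave no sign of one: same-numbered deviations correlated at -0.16, -0.04 and -0.01. With so few libraries these values cannot show that there is none. With the replicate number as a block, 0 members were called in either direction (Itga5 edgeR adjusted p = 0.0857). There were 0 higher and 2 lower in the pathway lists and 28 higher and 151 lower over all genes, in a fit with fewer residual degrees of freedom. DESeq2 gave no adjusted p for Itga2, and with no filter on low counts its adjusted p was 0.0510. Itga11 passed by DESeq2 (adjusted p = 0.0270) and with no filter (0.0492), and Lama4 by limma-voom (0.0497) and with the stricter filter (0.0444). Calls over all genes were 706 higher and 856 lower by DESeq2, and 920 higher and 715 lower with the length trend removed. The log2 ratio difference of Itga2 to Itgb1 was -1.096 with log2(FPKM + 0.1), against -2.12 without a pseudocount. Depth limits Itga2 and Lama3, at 2 to 21 and 0 to 28 counts a library.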
